A study of Homo sapiens with 6 samples.

Results

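The MYC, MAX and MXD network is a family of basic helix-loop-helix leucine zipper transcription factors. It was followed here through 10 genes, MYC, MAX, MXD1, MXD3, MXD4, MXI1, MNT, MGA, MLX and MLXIP, which were chosen by name. The choice was made with earlier results of these data known. All 10 were found among the 35052 genes of the data, and all 10 were among the 13131 genes abundant enough to be tested. RNA-seq was run on EoL-1, a human line derived from eosinophilic leukaemia, which the labels call eosinophil. Polyadenylated RNA was measured in 3 libraries of wild-type EoL-1 cells and in 3 libraries of EoL-1 cells carrying an ATF3 knockout made with CRISPR/Cas9. Both groups were grown in the same serum-containing medium, and no treatment beyond the editing is given. The series text calls the edited cells a knockdown, and the groups follow the sample labels. The labels do not say which guide or clone was used, whether the wild type carried Cas9, or whether replicates were separate cultures. The p-values therefore measure only the spread between these libraries, which may be technical.

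MYC activates transcription as a dimer with MAX, which binds the E-box, a short palindromic DNA element. MXD1, MXI1, MXD3, MXD4 and MNT also pair with MAX at E-boxes but recruit the SIN3-HDAC corepressor, and MGA brings MAX into a Polycomb complex named PRC1.6. MLX is a second hub that pairs with MLXIP, known as MondoA, a factor that responds to glucose-derived metabolites, and with MNT and some MXD proteins. In blood cell precursors MYC is known for driving growth and ribosome production, and MXD proteins are known to rise as cells mature. ATF3 is a stress-induced factor of the bZIP family, whose dimers bind CRE and AP-1 elements.

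The promoters of the members were searched for these elements in the 250 bases before each RefSeq gene start (GRCh38.p14). The table held 14 promoter entries for 9 members, and MYC had none. The E-box CACGTG was found in 3 of the 9 members, MXD4, MNT and MLX. By entry that is 3 of the 14 promoters, beside 6.34% of all 35116 promoters. The CRE TGACGTCA was found in MLXIP, 1 of the 14 entries, and in 1.65% of promoters. The AP-1 element TGACTCA, searched on both strands, was found in MXD3, 1 of the 14 entries, and in 4.2% of promoters. E-box and CRE are palindromes, so a match counts for both strands, and the 3 motifs do not overlap in these windows. The 5 stretches are shown because they hold the network's own element or that of ATF3-type factors, with the motif in capitals. They lie at chr4:2262322-2262359 (minus strand) for MXD4, chr17:2401228-2401273 (minus) for MNT, chr17:42567030-42567075 (plus) for MLX, chr12:122078679-122078726 (plus) for MLXIP and chr5:177312805-177312851 (minus) for MXD3. The first motif base lies at -238, -193, -50, -57 and -79 from the start, in that order.
MXD4: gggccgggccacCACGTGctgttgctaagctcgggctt
MNT: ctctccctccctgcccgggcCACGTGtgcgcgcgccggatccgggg
MLX: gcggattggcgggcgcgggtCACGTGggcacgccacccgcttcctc
MLXIP: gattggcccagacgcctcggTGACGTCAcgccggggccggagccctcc
MXD3: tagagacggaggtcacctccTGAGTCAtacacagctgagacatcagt
A match describes the letters of the window and is not a measured binding site.

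The libraries held 26766103 to 30117281 estimated reads. ATF3 mRNA stood at 22.85, 16.23 and 23.04 CPM, the reads of a gene as a share of its library, scaled with TMM factors, in wild-type libraries 1, 2 and 3, and at 5.62, 8.33 and 4.52 in knockout libraries 1, 2 and 3. It was lower in every knockout library, with a log2 fold change of -1.75 (SE 0.25, edgeR adjusted p = 0.0098). The label of eosinophil is only partly borne out by markers. Of 11 eosinophil markers, CLC, PRG3, IL5RA and GATA1 were at 0 in all 6 libraries, and 3 were abundant enough to test, of which RNASE2 and RNASE3 rose. The summed eosinophil markers spanned 36.8 to 52.0 CPM in the wild type and 116.2 to 186.0 CPM in the knockout. The 8 neutrophil and granule markers spanned 82.4 to 172.0 and 339.2 to 620.0 CPM, with 3 at 0 throughout and MS4A3, MPO and S100A8 called higher. The 6 monocyte and macrophage markers spanned 144.4 to 392.7 and 583.4 to 901.4 CPM, with CSF1R and LYZ called higher and 2 at 0. Endothelial and stromal markers summed to at most 0.5 CPM in any library. Markers of several myeloid types thus moved with the genotype, and their part in the results on the network was not tested. On the first principal component (42.1% of the variance) wild type 2 lay at -13.5, nearest the knockout side, while the other wild-type libraries lay at -37.9 and -34.9. Knockout 3 stood apart on the second component, at -41.7.

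Levels of different genes were set side by side as TPM, the deposited transcript abundances, which account for transcript length. MYC was the most abundant member in both groups, at 542 TPM in wild type and 471 TPM in knockout on average (n = 3 each). MAX, the shared partner, came next at 74.0 and 79.3 TPM, and MLX at 45.7 and 51.2 TPM. MYC thus had the highest mRNA level of the network by a wide margin, and no library of MAX or MLX came near a library of MYC. The size of the margin rests partly on short transcripts. MYC-208, of 567 bases, held 133, 128 and 161 TPM in wild type 1, 2 and 3. It had only 5.88, 6.09 and 6.64% of MYC reads there. MYC-202 alone held 120 to 162 TPM over all libraries, still above MAX. The ratios to MYC below carry the same uncertainty. MXD4 followed at 31.1 TPM in wild type and 44.1 TPM in knockout, the highest of the MXD genes in each group when all transcripts are summed. Over protein-coding transcripts alone MXD1, at 18.4 TPM in wild type, stood above MGA at 16.1 and MXD4 at 14.7, while in knockout MXD4 at 20.8 again led the MXD genes. The difference lies in short transcripts such as MXD4-204, a target of nonsense-mediated decay. MGA, MXD1 and MNT followed at 21.4, 19.2 and 18.5 TPM in wild type and at 21.0, 20.1 and 17.2 TPM in knockout. MXI1, MLXIP and MXD3 were lowest in wild type at 13.4, 10.9 and 10.3 TPM, and in knockout MLXIP at 15.02 TPM stood above MXI1 at 13.4 and MXD3 at 11.8. In wild type the ranges of MGA and MXD1, of MXD1 and MNT, and of MLXIP and MXD3 overlapped, so the order within these pairs is not beyond the spread of the libraries. In knockout the same was true of MLX and MXD4 and of every neighbouring pair from MGA downwards.

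**Figure D1:**
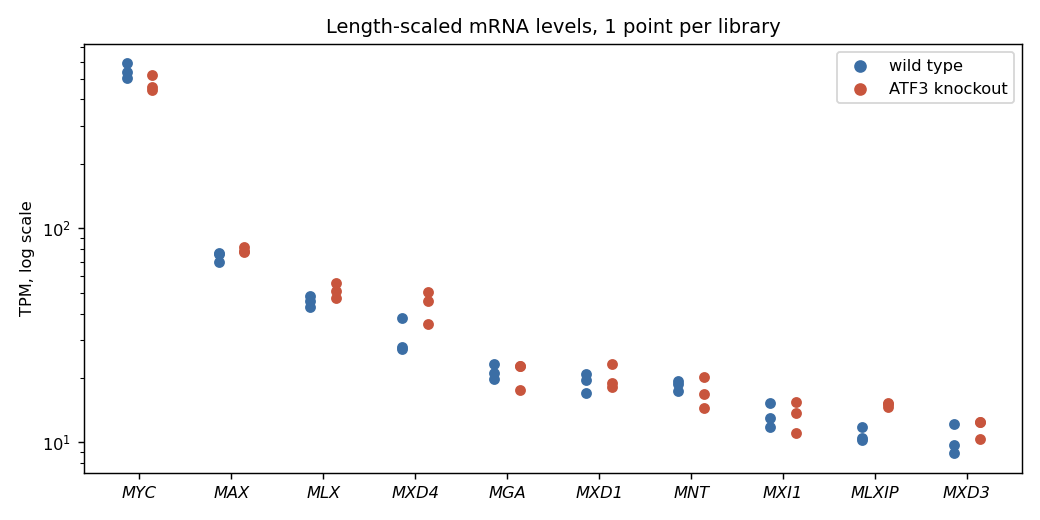
TPM (log axis) of the 10 members, 1 point per library, wild type in blue and ATF3 knockout in red, ordered by the wild-type mean. MYC lies at 440.6 TPM or more in all 6 libraries and MAX, the next member, at 82.0 TPM or less; the 3 knockout points of MLXIP lie above its 3 wild-type points.

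Of the 10 members, 3 passed the test for a difference between the genotypes. MLXIP and MXD4 were higher in the knockout, by 1.37-fold and 1.36-fold, and MNT was lower by 1.19-fold. The other 7 did not pass. Over all genes tested 21.1% were called, 11.4% higher and 9.72% lower, so 3 of 10 members is a share near the background. The same 3 members were the ones whose library values did not overlap between the groups, and 43.5% of all genes had such non-overlapping groups. The fitted log2 fold changes of the members, knockout minus wild type, were above 0 for 6 and below 0 for 4, with a median of 0.025 against 0.005 for all genes. The largest was 0.46 in size. Changes at least as large as that of MNT were seen in 47.0% of all genes tested.

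**Figure D2:**
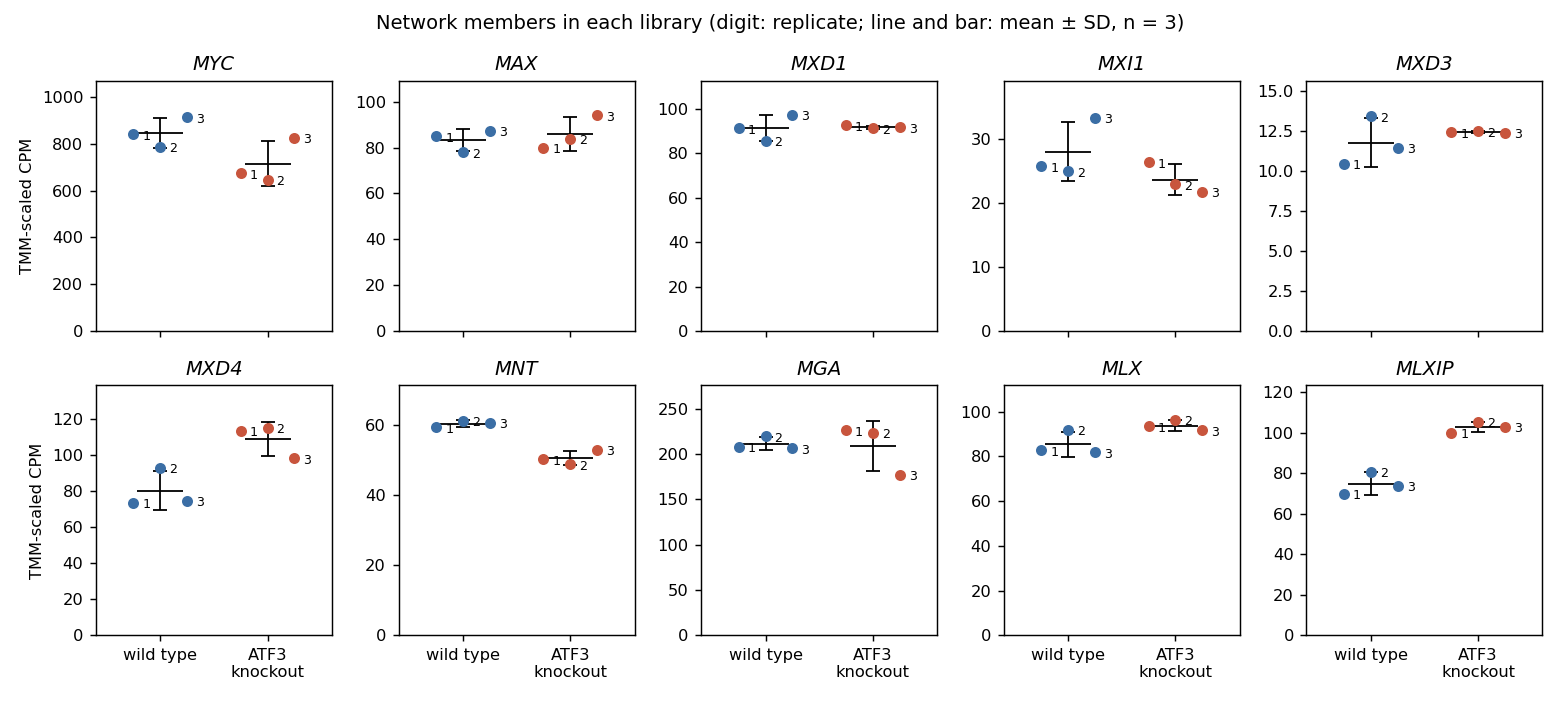
TMM-scaled CPM of each member in each library (digits give the replicate number), with the mean ± SD of 3 libraries per group; every axis starts at 0. The points of MXD4, MNT and MLXIP separate by genotype, those of the other 7 members overlap, and MYC spans 645 to 913 CPM.

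MYC (chromosome 8, 127735434 to 127741434, plus strand of GRCh38) is the activator of the network. It had 839, 787 and 913 CPM in wild type 1, 2 and 3 and 673, 645 and 824 CPM in knockout 1, 2 and 3. Knockout 1 and 2 lay below all wild-type libraries, but knockout 3 lay above wild type 2, so the groups overlapped. The means were 847 ± 63.7 and 714 ± 96.6 CPM (SD, n = 3), and the log2 fold change was -0.25 (SE 0.11, 95% interval -0.5 to 0.01, edgeR adjusted p = 0.145). The call depends on knockout 3 among other choices: without that library the log2 fold change was -0.37 with an edgeR adjusted p of 0.0266. The trend of fold changes with GC content also mattered, since with it removed the value was -0.33 (edgeR adjusted p = 0.0429). The transcript MYC-202, of 439 codons, held 44.4% of MYC reads in wild type and 43.7% in knockout on average. The 454-codon transcripts MYC-206 and MYC-207 held 24.1, 24.0 and 24.2% in wild type 1, 2 and 3 and 28.1, 24.5 and 25.5% in knockout 1, 2 and 3. The shares of this 454-codon group did not overlap, though knockout 2 was close to wild type, and they were not tested. MYC-205, of 453 codons, held 23.6, 21.1 and 22.1% in wild type and 20.6, 20.7 and 21.2% in knockout. It leaned the other way with overlap, so the separation holds only where these nearly equal coding lengths are counted apart. In bulk RNA, fewer cells of a kind and less RNA per cell cannot be told apart.

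The paralog MYCN, a neural and stem-cell MYC, was at 0 reads in all libraries. MYCL had 3.86, 4.85 and 3.17 CPM in wild type and 9.42, 4.55 and 4.18 CPM in knockout. Its high value was in knockout 1 alone, and it did not pass (log2 fold change 0.61, SE 0.35, edgeR adjusted p = 0.252). MLXIPL, the ChREBP gene and a partner of MLX, had at most 0.33 CPM and was not tested. MYC was therefore the only MYC gene above 10 CPM.

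MAX (chromosome 14, 65006174 to 65102695, minus strand), the obligate partner of MYC, was at 84.9, 78.0 and 87.3 CPM in the wild type and at 79.8, 84.0 and 94.0 CPM in the knockout. The groups overlapped throughout, with a log2 fold change of 0.04 (SE 0.08, 95% interval -0.15 to 0.24, edgeR adjusted p = 0.743). MAX has 2 well-known protein forms that differ by a short insert near the DNA-binding region. The transcript with 151 codons, MAX-204, took 40.3, 53.9 and 41.1% of MAX reads in the wild type and 54.8, 55.5 and 51.5% in the knockout. Wild type 2 lay within the knockout range. The second largest share was that of MAX-219, a transcript with 103 codons. It took 34.8, 25.5 and 39.1% in wild type and 29.2, 21.0 and 34.5% in knockout, with overlap. The transcript with 160 codons, MAX-205, took 8.2, 3.1 and 0% in wild type and 0, 11.6 and 0% in knockout, and showed no pattern by genotype. Shares by transcript come from the read assignment of the authors, whose error the data do not give, and they were not tested.

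The ratio of MAX to MYC in TPM was 0.141, 0.139 and 0.130 in wild type and 0.171, 0.186 and 0.151 in knockout. All 3 knockout libraries lay above all 3 wild-type libraries in this ratio, which was not tested. Over protein-coding transcripts it was 0.0838, 0.1059 and 0.0939 in wild type and 0.1170, 0.1061 and 0.1093 in knockout, so wild type 2 and knockout 2 were nearly equal. MAX itself was at 75.6, 69.6 and 76.7 TPM in wild type and 77.7, 82.0 and 78.2 TPM in knockout, which did not overlap on this scale, unlike its CPM. The protein-coding transcripts of MAX alone overlapped, at 45.0, 53.1 and 55.3 TPM in wild type and 53.3, 46.8 and 56.6 TPM in knockout. The short retained-intron transcript MAX-209 held 28.8, 16.0 and 20.5 TPM in wild type and 24.1, 34.4 and 21.0 TPM in knockout. MYC overlapped on both scales, through knockout 3.

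The 4 MXD genes encode repressors that compete with MYC for MAX. MXD4 (chromosome 4, 2247432 to 2262294, minus strand) had 73.5, 93.2 and 74.8 CPM in wild type and 113.6, 115.2 and 98.5 CPM in knockout. Every knockout library lay above every wild-type library, though wild type 2 and knockout 3 were close. The means were 80.5 ± 11.0 and 109.1 ± 9.22 CPM (SD, n = 3), with a log2 fold change of 0.44 (SE 0.11, 95% interval 0.17 to 0.7, edgeR adjusted p = 0.0357). The direction was kept in each alternative fit, but the call was lost without wild type 1 (edgeR adjusted p = 0.136), wild type 3 (0.13), knockout 1 (0.101) or knockout 2 (0.0943). It was also lost with transcript lengths as an offset (0.12) and with the GC trend removed (0.115). MXD4-201, the transcript with 209 codons, held 78.1% of MXD4 reads in wild type and 77.9% in knockout, so the mix of MXD4 transcripts was near the same. Its promoter is one of the 3 with an E-box shown above.

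MXD1 (chromosome 2, 69897688 to 69942945, plus strand), the first described MAX-binding repressor and a gene known from granulocyte maturation, was at 91.3, 85.6 and 97.3 CPM in wild type and 92.6, 91.3 and 91.7 CPM in knockout. All knockout values lay inside the wild-type range. Its log2 fold change was 0.01 (SE 0.07, 95% interval -0.15 to 0.16, edgeR adjusted p = 0.953), and its sign turned with upper-quartile scaling. The 2 main transcripts kept their shares, with MXD1-201 at 58.1 and 57.4% and MXD1-206 at 37.9 and 38.9% in wild type and knockout. MXD1 shares 237 exon bases with SNRNP27, a splicing factor gene, so a part of its reads is uncertain.

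MXI1 (chromosome 10, 110207605 to 110287365, plus strand), also named MXD2, had 25.7, 24.9 and 33.3 CPM in wild type and 26.3, 22.8 and 21.7 CPM in knockout. Wild type 3 was the high library and the groups overlapped through knockout 1. The log2 fold change was -0.25 (SE 0.14, 95% interval -0.57 to 0.07, edgeR adjusted p = 0.233), as large as that of MYC but with a wider interval. With transcript lengths as an offset it was -0.05. MXI1 has alternative starts, and the 228-codon MXI1-201 held 47.7% of its reads in the wild type and 46.5% in the knockout. The 295-codon MXI1-202, which starts further upstream, held 39.3 and 34.7%.

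MXD3 (chromosome 5, 177301461 to 177312757, minus strand), a member known from dividing precursor cells, was the least abundant. It had 10.5, 13.4 and 11.4 CPM in the wild type and 12.4, 12.5 and 12.4 CPM in the knockout. The knockout values lay close together and inside the wild-type range, with a log2 fold change of 0.08 (SE 0.12, 95% interval -0.21 to 0.37, edgeR adjusted p = 0.686). MXD3 shares 1158 exon bases with PRELID1 on the other strand and 926 with RAB24 on its own strand. These neighbours had 22464.4 and 8030.9 reads over the 6 libraries against 2012.1 for MXD3, so the MXD3 level is uncertain.

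The summed TPM of MXD1, MXD3, MXD4 and MXI1 relative to MYC was 0.127, 0.160 and 0.124 in wild type and 0.204, 0.221 and 0.151 in knockout. Knockout 3 lay below wild type 2, so the groups overlapped in this ratio, as they did over protein-coding transcripts alone. MYC mRNA exceeded the sum of these 4 repressors in every library.

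MNT (chromosome 17, 2384060 to 2401118, minus strand) is a broadly expressed repressor that pairs with MAX or MLX and occupies many of the sites of MYC. It was at 59.4, 61.2 and 60.7 CPM in the wild type and 50.2, 48.7 and 52.9 CPM in the knockout. The values within each group lay close together and did not overlap. The means were 60.4 ± 0.93 and 50.6 ± 2.09 CPM (SD, n = 3), a log2 fold change of -0.26 (SE 0.06, 95% interval -0.4 to -0.11, edgeR adjusted p = 0.0302). The change is of the size of that of MYC and MXI1, and it passed with a smaller SE. The direction was kept in each alternative, but the call was lost when any library but knockout 3 was left out. The edgeR adjusted p was then 0.104, 0.0615 and 0.111 without wild type 1, 2 and 3 and 0.0859 and 0.0762 without knockout 1 and 2. With transcript lengths as an offset the log2 fold change was -0.17 (edgeR adjusted p = 0.406). On the TPM scale the MNT groups overlapped, at 18.8, 17.5 and 19.3 in wild type and 14.5, 20.1 and 16.8 in knockout. A short retained-intron transcript, MNT-205, carried 5.08, 3.38 and 6.09 of these TPM in the wild type and 4.13, 7.41 and 5.26 in the knockout. Over protein-coding transcripts alone the MNT groups did not overlap, at 10.0, 11.1 and 10.3 TPM in wild type and 7.99, 9.39 and 7.85 TPM in knockout. The coding transcript MNT-201, of 582 codons, held 83.3% of MNT reads in wild type and 81.2% in knockout. Its promoter also holds an E-box, as shown above.

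**Figure D3:**
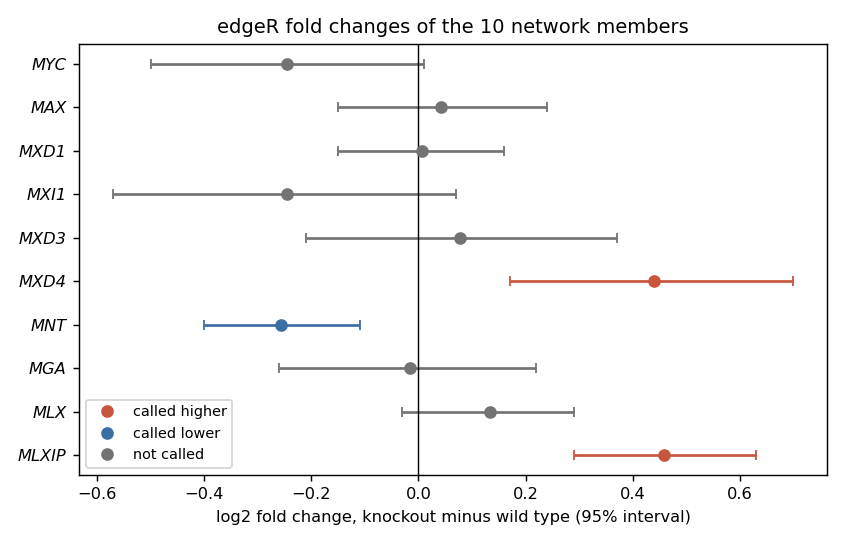
edgeR log2 fold change of each member, knockout minus wild type, with its 95% interval (x axis); colour marks the call at an adjusted p of 0.05. MLXIP and MXD4 lie to the right of 0 and MNT to the left, and the intervals of the other 7, MYC included, reach across 0.

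MGA (chromosome 15, 41621224 to 41773081, plus strand) is a large protein with a second DNA-binding domain of the T-box type, and a scaffold of PRC1.6. As a gene it had 208, 219 and 206 CPM in wild type and 226, 224 and 177 CPM in knockout. Knockout 1 and 2 were above wild type and knockout 3 below it, so no direction emerged (log2 fold change -0.01, SE 0.10, 95% interval -0.26 to 0.22, edgeR adjusted p = 0.933). By transcript, the 2 genotypes did not overlap in the shares below. These shares make up most MGA reads, so a fall of the first and a rise of the second are the same observation. Among all coding-length groups of the members, only these and the 454-codon group of MYC were without overlap. No such share over the transcripts of all genes is given. Transcripts with 2856 codons (MGA-202 and MGA-207) held 63.1, 60.8 and 66.2% of MGA reads in the wild type and 45.3, 37.4 and 50.2% in knockout. Transcripts with 3065 codons (MGA-201 and MGA-211) held 30.6, 32.8 and 27.6% in the wild type and 49.4, 57.7 and 42.8% in the knockout.

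The long and short forms of MGA differ by a coding exon of 627 bases, or 209 codons, at chromosome 15, 41742546 to 41743172. Every knockout library thus assigned a larger share of MGA reads to the form that includes this exon than any wild-type library did. The mean share of the 3065-codon form was 30.3 ± 2.61% in wild type and 50.0 ± 7.44% in knockout (SD, n = 3). The estimate of single transcripts was unstable within the long form. MGA-201 was at 0 reads in knockout 3, where MGA-211 held 2212.57, and MGA-211 was at 0 in 4 of the other libraries. Summing by coding length removes that exchange, and the shift was seen in all 3 knockout libraries. It was not tested, since the assignment error of each transcript is not given.

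**Figure D4:**
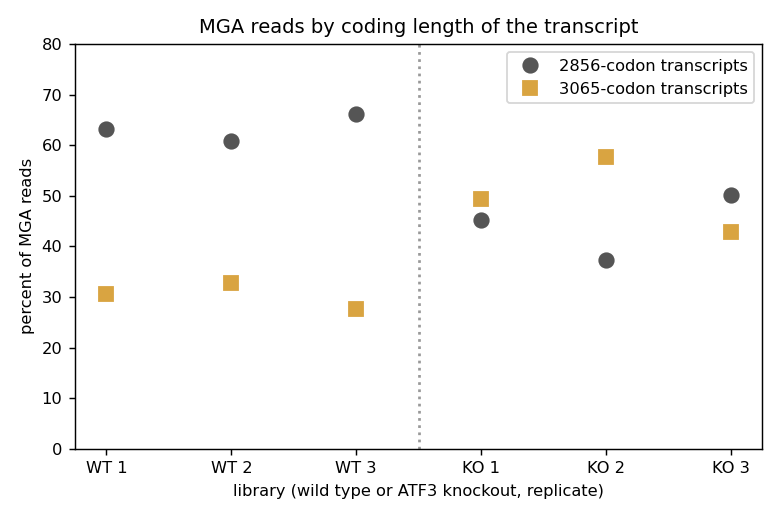
Percent of MGA reads assigned to transcripts with 2856 codons (circles) and 3065 codons (squares) in each library. The longer form lies between 27.6 and 32.8% in wild type and between 42.8 and 57.7% in the knockout.

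MLX (chromosome 17, 42567068 to 42573239, plus strand), the second hub, had 82.7, 92.0 and 81.8 CPM in wild type and 93.5, 96.4 and 91.7 CPM in knockout. Only wild type 2 reached the knockout range, and the difference did not pass (log2 fold change 0.13, SE 0.07, 95% interval -0.03 to 0.29, edgeR adjusted p = 0.197). MLX shares 770 exon bases with PSMC3IP on the other strand, which had 1931.3 reads over all libraries against 14912.4 for MLX.

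MLXIP (chromosome 12, 122078722 to 122147347, plus strand) encodes MondoA, the partner of MLX that enters the nucleus when glucose 6-phosphate is high. It had 69.7, 80.7 and 73.9 CPM in the wild type and 100.04, 105.4 and 102.8 CPM in the knockout. The lowest knockout library lay well above the highest wild-type library. The means were 74.8 ± 5.56 and 102.7 ± 2.66 CPM (SD, n = 3), and the log2 fold change of 0.46 (SE 0.07, 95% interval 0.29 to 0.63, edgeR adjusted p = 0.011) was the largest and had the smallest p of the network. Without wild type 1 or wild type 3 the edgeR adjusted p was 0.0598 and 0.0545. The transcript MLXIP-201, of 919 codons, held 91.6% of reads in the wild type and 92.3% in the knockout. The MLXIP promoter is the one with the CRE shown above.

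The ratio of MLXIP to MLX in TPM was 0.229, 0.244 and 0.240 in wild type and 0.297, 0.274 and 0.313 in knockout. Every knockout library lay above every wild-type library, also over protein-coding transcripts alone, in a ratio that was not tested. MLXIP alone was already without overlap, at 10.5, 11.8 and 10.3 TPM in wild type and 15.1, 15.3 and 14.7 TPM in knockout. The ratio is therefore not a result separate from that of MLXIP.

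Around the network, 9 lists of cofactors and targets held 106 tested genes, of which 27, or 25.5%, were called, near the 21.1% of all genes. The shares over all genes, 11.4% higher and 9.72% lower, are the background of each list's count below. The 10 coactivators that MYC recruits, among them histone acetyltransferase and chromatin remodelling subunits, held 0 genes called higher and 2 lower, with a median log2 fold change of -0.08. KAT5, the TIP60 acetyltransferase, had a value of -0.25 (edgeR adjusted p = 0.0345) and ACTL6A, an actin-like subunit, -0.22 (edgeR adjusted p = 0.0493). ACTL6A lost the call with each of the 6 libraries left out in turn, and KAT5 with each but knockout 3. Both also lost it with lengths as an offset, with the same-version join of transcripts and with no low-count filter, and ACTL6A also with limma-voom and with the GC trend removed. KAT5 shares exon bases with RNASEH2C on the other strand.

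Of the 12 genes of the SIN3-HDAC corepressor, through which MXD proteins and MNT act, SUDS3 was called higher (0.35, edgeR adjusted p = 0.0145) and SAP18 lower (-0.2, edgeR adjusted p = 0.0452). The other 10, including both SIN3 genes and both HDAC genes, did not pass, and the median was 0.01. SUDS3 lost its call without wild type 1 or wild type 3, and SAP18 with each of the 6 libraries left out. Both lost it with lengths as an offset and with the same-version join, and SAP18 also with no low-count filter and with the GC trend removed. Of the 9 partners of MGA in PRC1.6, 8 were tested and 0 were called in either direction by edgeR, with 3 at an unadjusted p under 0.05, while DESeq2 called 2 lower. The most abundant over all libraries, CBX3, a heterochromatin protein, had -0.26 (edgeR adjusted p = 0.0541). CBX3 was called lower with DESeq2 (adjusted p = 0.0139), with upper-quartile factors (edgeR, 0.0358) and with the same-version join (edgeR, 0.0267). CBX3 shares 368 exon bases with HNRNPA2B1 on the other strand, which had 199860 reads over all libraries against 43353.2 for CBX3. RING1 was at 0 reads throughout. The join left 3.59 to 3.82% of reads without a gene, and these were not searched for RING1. Its absence from the cells is therefore not established.

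Of 10 genes that act on MYC protein stability or on its repressor partner, 2 were called higher and 0 lower, with a median of 0.11. USP28, a deubiquitinase known to stabilise MYC, rose from 13.6 ± 1.9 to 22.5 ± 1.88 CPM (SD, n = 3; log2 fold change 0.72, edgeR adjusted p = 0.0137). ZBTB17, which encodes MIZ1, the factor through which MYC represses genes, rose by 0.43 (edgeR adjusted p = 0.0198). Neither held its call without wild type 1 or wild type 3. ZBTB17 also lost it without knockout 1 or knockout 2, with lengths as an offset, or with the GC trend removed.

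Targets that MYC is known to activate were mostly on the lower side. Of 30 tested, 15 were called lower and 0 higher, beside 9.72% and 11.4% of all genes, and 27 had a fitted value below 0. The list was chosen with earlier results of these data known, so these counts are not independent of the data. The median log2 fold change was -0.26, against 0.005 for all genes. Set against the wild-type mean, the median over the list was -0.33, -0.3 and -0.24 in knockout 1, 2 and 3 and between -0.015 and 0.008 in wild type. The summed level of the list was 10058.9 to 10364.2 CPM in wild type and 8272.6 to 8676.5 CPM in knockout, with no overlap. The sum is weighted to the most abundant genes and does not describe the list evenly. In wild type and knockout, NPM1 averaged 1699 and 1183 CPM, NCL 1669 and 1328 CPM and EIF4A1 1321 and 1276 CPM.

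The 3 activated targets named by the smallest p are NOP58, NPM1 and MRTO4. NOP58, a core protein of box C/D small nucleolar ribonucleoproteins, fell from 192 ± 8.67 to 135 ± 4.53 CPM (SD, n = 3), a log2 fold change of -0.5 (SE 0.06; edgeR adjusted p = 0.0081). NPM1, the nucleolar chaperone nucleophosmin, fell from 1699 ± 111 to 1183 ± 38.6 CPM, a log2 fold change of -0.52 (SE 0.07, edgeR adjusted p = 0.0087). MRTO4, a factor of the large ribosomal subunit, fell from 111 ± 1.95 to 81.8 ± 2.42 CPM, a log2 fold change of -0.43 (SE 0.06, edgeR adjusted p = 0.0087). Others called lower, chosen here after their values were seen, were NCL (-0.33), FBL (-0.38) and DDX18 (-0.46), which serve the nucleolus, and ODC1 (-0.51) and SHMT2 (-0.58), enzymes of polyamine and one-carbon metabolism. With the same-version join FBL stood at -0.15 (edgeR adjusted p = 0.349) and DDX18 at -0.27 (edgeR adjusted p = 0.214), and MRTO4 and ODC1 kept their size but not the call. The other 15 did not pass. Among them were NOP56 (-0.06), NOP16 (0.08), BOP1 (-0.18) and RRS1 (-0.18), which also serve the nucleolus. The nucleolar genes of the list thus did not all fall alike. EIF4A1 (-0.05), a helicase of translation initiation, did not pass either. These genes were also chosen after their values were seen.

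The number called lower among activated targets depended on single libraries. It was 0 without wild type 1, where 0 of all genes passed and 16 of the 30 had an unadjusted p under 0.05, and DESeq2 on all libraries called 18. It was 6 without wild type 3, 9 with lengths as an offset and 7 of 28 with the same-version join. NOP58, NPM1 and MRTO4 lost the call with a single library left out only for wild type 1, and NCL, FBL and ODC1 for wild type 1 or wild type 3. The median stayed between -0.31 and -0.23 in these and the other fits.

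Of 10 genes that MYC is known to repress, 9 were tested, 2 were called higher and 0 lower, with a median of 0.16. Fitted values were above 0 for 5 and below 0 for 4, so the list had no common direction. CDKN1B stood at -0.22 without overlap (edgeR adjusted p = 0.0949) and NDRG1 at -0.39 with overlap (edgeR adjusted p = 0.438). Both are named here after their values were seen. CDKN1A, the p21 inhibitor of the cell cycle, had 37.3, 77.8 and 59.2 CPM in the wild type and 203, 378 and 210 CPM in the knockout. The groups were far apart, by a log2 fold change of 2.18 (SE 0.34, edgeR adjusted p = 0.011). CEBPA, a factor of granulocyte development, rose from 276 ± 32.3 to 400 ± 40.8 CPM (SD, n = 3; log2 fold change 0.53, edgeR adjusted p = 0.0197). CDKN1A lost its call without wild type 1 or wild type 3, and CEBPA without wild type 1, wild type 2 or knockout 1.

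The 6 tested targets of MondoA and MLX did not move one way while MLXIP rose. HK2, a hexokinase, was called lower (-0.34, edgeR adjusted p = 0.0189), as was ARRDC3, an arrestin-like gene (-1.44, edgeR adjusted p = 0.046). ARRDC3 was scarce, at 3.78, 1.44 and 3.79 CPM in wild type and 1.35, 1.02 and 0.96 CPM in knockout. Wild type 2 and knockout 1 were close in ARRDC3. PFKFB3, which makes an activator of glycolysis, was called higher (0.31, edgeR adjusted p = 0.0304), but its value was -0.86 and not called with transcript lengths as an offset. HK2 lost its call without wild type 1, wild type 3 or knockout 1, and ARRDC3 and PFKFB3 each with 5 of the 6 libraries left out in turn. Both also lost it with the GC trend removed, and ARRDC3 with limma-voom. TXNIP and ARRDC4, the glucose-response genes best known as MondoA targets, are added here after their values were seen. TXNIP had 345, 404 and 349 CPM in wild type and 331, 235 and 192 CPM in knockout, with no overlap (log2 fold change -0.54, edgeR adjusted p = 0.0875). It was called lower with DESeq2 (adjusted p = 0.0176) and, in edgeR, without knockout 1 (-0.78, adjusted p = 0.028). ARRDC4 had a log2 fold change of 0.71 (edgeR adjusted p = 0.148) and overlapping groups. Without knockout 3 it was called higher (0.96, edgeR adjusted p = 0.0398).

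Of 20 proliferation genes, 17 had a fitted value below 0 and 3 above, with a median of -0.17. A lean to the lower side was thus not particular to the activated targets. By the test, 0 were called higher and 1 lower. The count depended on the fit: 7 were lower with DESeq2, 5 with the GC trend removed and 3 without knockout 2 or knockout 3, while the same-version join gave 2 higher and 0 lower. The called gene was MCM6, part of the helicase that opens DNA for replication. It fell from 318 ± 12.1 to 237 ± 18.3 CPM (SD, n = 3; log2 fold change -0.42, edgeR adjusted p = 0.0135). Its call was lost without wild type 1 or wild type 3 and with the same-version join. The list's median against the wild-type mean was -0.32, -0.02 and -0.14 in knockout 1, 2 and 3, so knockout 2 was close to wild type.

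**Figure D5:**
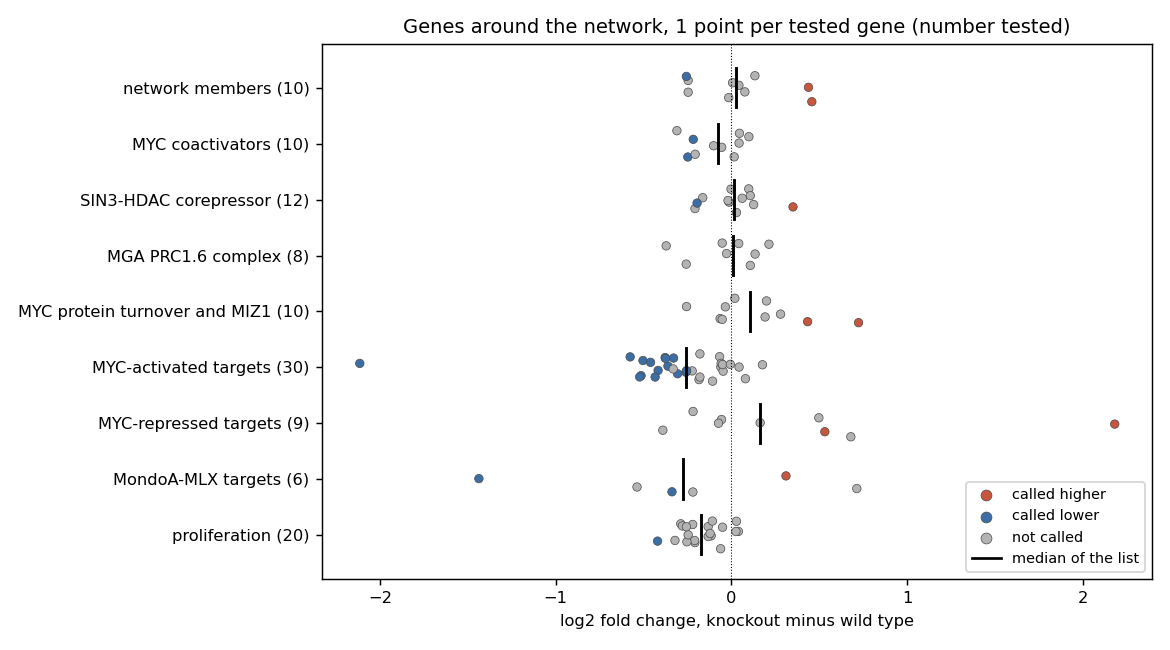
edgeR log2 fold change (x axis) of each tested gene of the network and of 8 lists around it, 1 point per gene, with the number tested in brackets and the list's median as a bar. Activated targets of MYC lie mostly left of 0 with 15 called lower, while the network's own median lies at 0.025.

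The genes whose levels ran most like MYC over the 6 libraries were NDUFA7, PRMT5 and TINF2. Pearson's r of log2 CPM with MYC was 0.996 for NDUFA7, a subunit of respiratory complex I, 0.993 for PRMT5, an arginine methyltransferase, and 0.993 for TINF2, a telomere protein. They are the highest of 8785 genes ranked, the 6 libraries share 2 genotypes, and no p is given. NDUFA7 had 29.5, 28.3 and 32.8 CPM in wild type and 22.9, 22.3 and 29.1 CPM in knockout. Like MYC, it was lowest in knockout 1 and 2 and overlapped through knockout 3, and it was not called (edgeR adjusted p = 0.137). PRMT5 and TINF2 were not called either (edgeR adjusted p = 0.152 and 0.23). NDUFA7 shares exon bases with a read-through gene on its own strand, which had 32.5 reads over all libraries. It also shares 89 exon bases with RPS28 on the other strand. RPS28 had 58351.1 reads over all libraries against 4577.8 for NDUFA7, so a part of the NDUFA7 reads is uncertain.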

How the data were processed

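Polyadenylated RNA of 3 wild-type and 3 ATF3-knockout EoL-1 libraries was prepared with a stranded mRNA kit, per the labels' protocols. The authors deposited a transcript table per library with estimated counts (expected counts), TPM and lengths, per the file headers. The submitters' processing notes name FastQC 0.11.9, Salmon 1.6.0 and hg38. The sources used here do not give the library type, bias options or transcriptome release, so genes that overlap may share reads. Effective lengths, as deposited, did not differ between libraries. The deposited TPM values were summed per gene and used as levels, not in a test.

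Transcripts were joined to genes by identifier with GENCODE 29 (GRCh38), version ignored. Of 177456 transcripts 167027 joined, 155671 of them with the same version. The 10429 without a gene held 3.59 to 3.82% of reads and stayed out of library sizes. Estimated counts were summed per gene and rounded. The test was edgeR 4.0.16 (quasi-likelihood, R 4.3.3) with genotype as the only term, TMM factors, a filterByExpr minimum count of 10 and p-values adjusted by Benjamini-Hochberg over 13131 genes at 0.05. Its 4 residual degrees of freedom limit the precision. Alternatives used DESeq2 1.42.0, limma 3.58.1, other factors, filters, offsets and joins, a replicate block and the omission of each library. Removal of the trend with GC content was added after seeing the data. The pipeline was tested on simulated data.

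The members and lists were chosen with earlier results of these data known. All members, and ATF3, are named. Of each list the 3 called genes with the smallest p are named, or the most abundant gene where none was called. The 3 protein-coding genes best correlated with MYC, at a mean of at least 10 CPM, are also named. Of the list of noncoding genes at the MYC locus, 0 were joined, and they are not analysed here. Of the remaining marker lists, 0 of 2 tested lymphocyte genes and 1 of 1 tested erythroid and megakaryocyte genes (ITGA2B, higher) were called.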

Additional observations from a re-analysis of the deposited data

How the results depend on the processing

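Of the network, 3 members were called. The count was 1 with effective lengths as an offset, 0 with transcripts joined at the same version alone, and 0 to 4 when each library was left out. The same-version join leaves out the main transcripts of MXD4, MNT, MLXIP and MXD1. Of the 106 genes in the lists around the network, 27 were called. That count was 15 with the offset, 15 with the same-version join, 42 with DESeq2 and 0 to 33 with each library left out. Over all genes, 2770 were called with every library, 1383 with the offset, 1021 with the same-version join, 358 without wild type 3, 1406 without knockout 1 and 1721 without knockout 2. Without wild type 1, edgeR called 0 genes, with 3496 at an unadjusted p under 0.05 and a smallest adjusted p of 0.0503. The split of all calls was 1494 higher and 1276 lower with TMM, 1314 and 1410 with upper-quartile factors, and 1387 and 1385 with the GC trend removed.

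Signs turned for 4 members near 0. MXD1 was -0.016 (log2 fold change) with upper-quartile factors, MXD3 -0.051 and MGA 0.05 with the GC trend removed. Outside the network, PFKFB3, called higher at 0.31, was -0.855 with the offset. With each library left out, MAX ranged from -0.036 to 0.093, MXD1 from -0.04 to 0.052, MXD3 from -0.003 to 0.18 and MGA from -0.076 to 0.081. MYC, MXD4, MXI1, MNT, MLX and MLXIP kept their sign in every fit. The cause of these changes was not tested. With the same-version join the log2 fold change was -0.09 for MNT (edgeR adjusted p = 0.746) and 0.33 for MLXIP (0.383).

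The replicate numbers did not pair the libraries: same-numbered deviations correlated at -0.092, 0.106 and 0.196. With a replicate block 2318 genes were called, and 3 members: MYC (-0.25, edgeR adjusted p = 0.0464), MXD4 and MLXIP, while MNT had 0.0564. Of the lists, it called ARRDC4 (0.69, 0.0342), 3 proliferation genes and 1 PRC1.6 gene, and not KAT5, ACTL6A, SAP18, PFKFB3 or ARRDC3. Levels over protein-coding transcripts alone were equal for MYC but 14.7 TPM in place of 31.1 for MXD4 in wild type; the order of members then changed, MAX overlapped between the groups and MNT did not. Ratios over those transcripts were added after seeing the data.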
